A study of Mus musculus with 10 samples.

Results

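The nuclear genes for the subunits of the respiratory chain and of ATP synthase were compared between wild-type control and FMR1-KO astrocyte arrays. They were found by symbol: probe sets whose annotation gives exactly 1 gene symbol, where that symbol has the form taken here for complex I (Nduf followed by a, b, c, s or v and a digit), complex II (Sdha to Sdhd), complex III (Uqcr and Cyc1), the carrier cytochrome c (Cycs), complex IV (Cox4 to Cox8) or complex V, the ATP synthase (Atp5). The symbol's form does not show that a gene's product belongs to that complex. Of 22180 genes with such a probe set, 82 matched, through 95 probe sets, and each gene was read from its brightest probe set over all 10 arrays. By symbol alone, 33 of the 82 genes were assigned to complex I, 4 to complex II, 9 to complex III, 1 as the carrier, 17 to complex IV and 18 to complex V. A filter on dim probe sets left 78 of them among 17712 genes tested. The pseudogenes Atp5c1-ps and Uqcrh-ps1 and the testis isoforms Cox7b2 and Cox8c did not pass it.

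The arrays were hybridised with RNA from cortex of mice aged 8 weeks, from cells sorted on an EGFP reporter that marks astrocytes, with 5 arrays labelled wild-type control and 5 labelled FMR1-KO. The comparison is the one the series' design states, and it asks how astrocyte RNA differs without FMRP, the RNA-binding protein encoded by Fmr1 and lost in fragile X syndrome. The sources used here name neither the promoter that drives EGFP nor the allele, strain or sex, nor do they say whether a sample is 1 animal or a pool. The p-values therefore weigh differences only against the scatter of these arrays, whose number limits the precision.

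The respiratory chain sits in the inner mitochondrial membrane. Complexes I and II take electrons from NADH and succinate and pass them through ubiquinone to complex III, cytochrome c carries them on to complex IV, and complex IV hands them to oxygen. Complexes I, III and IV pump protons, and ATP synthase lets the protons back in to make ATP. Most subunits are encoded in the nucleus and a small set in the mitochondrial genome. Astrocytes are known for a strong glycolytic output of lactate, and they hold respiring mitochondria as well.

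Fmr1 signal was not lower on the arrays labelled FMR1-KO. It read 8.28, 7.60, 8.03, 8.17 and 8.10 on control arrays 1 to 5 and 8.32, 8.38, 8.26, 8.15 and 8.01 on KO-labelled arrays 1 to 5, a difference of 0.19 ± 0.13 (SE; limma, adjusted p = 0.704). Without the disrupted stretch of Fmr1 given in the labels, this signal may or may not test them, and the arrays are called KO-labelled from here on. Xist, the RNA made by the silenced X chromosome of female cells, was high on control arrays 2 and 3 alone, at 10.60 and 10.98. Uty, a gene of the Y chromosome, read 4.82 and 4.77 on these 2 arrays and 7.64 or more on every other array. Kdm5d, also on the Y chromosome, read 4.86 and 4.83 on them and 7.05 or more elsewhere. By these signals control arrays 2 and 3 were female and all 5 KO-labelled arrays male, so sex was unbalanced between the groups. Markers of astrocytes and of other cells were read as well. The 25 measured microglia markers had a mean level of 9.95, 10.79, 10.99, 10.90 and 10.95 on control arrays 1 to 5 and of 9.83, 9.25, 10.63, 10.66 and 10.41 on KO-labelled arrays 1 to 5, so the sorted material was not of astrocytes alone. The 29 astrocyte markers ran the other way, at 10.43 on control array 1 beside 9.70 to 10.02 on controls 2 to 5, and at 10.81 and 10.85 on KO-labelled arrays 1 and 2 beside 9.90 to 10.10 on arrays 3 to 5. All 25 microglia markers had a lower mean on the KO-labelled arrays (median difference -0.55) and all 29 astrocyte markers a higher one (median 0.41), none past the threshold on adjusted p. At an unadjusted p under 0.05 in limma, 8 of the 25 microglia markers were lower, where 3.53% of all genes were. At that p, 8 of the 29 astrocyte markers were higher, where 4.0% of all genes were. The choroid plexus markers were lower in 8 of 8 (median -0.29). Endothelial and mural markers were lower in 10 of 17 (median -0.12), neuronal markers in 7 of 14 (median 0.00) and oligodendrocyte markers in 5 of 11 (median 0.01), and 0 of 8 erythroid genes were measured. Of the 17 endothelial and mural markers, 3 were lower at an unadjusted p under 0.05 in limma (Flt1, Cldn5 and Kdr) and 1 was higher (Pdgfrb). Neuronal markers had 2 lower and 1 higher at that p, and choroid plexus and oligodendrocyte markers had 0 in either direction.

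The promoters of subunit genes carry binding motifs of a few factors long known to act on this gene group, above all NRF1. Sequence was taken from the RefSeq promoter table for build GRCm38.p6, which holds 70 promoters for 65 of the 82 genes, and the 250 bases before each start were searched on both strands. The NRF1 motif GCGCANGCG was found in 14 of the 70 (20.0%) and in 5.16% of all 32851 promoters of that length. The ETS motif read by GABP, CCGGAAG, was in 17.1% against 6.91%, the YY1 motif AANATGGC in 8.57% against 3.91%, and the cyclic AMP element TGACGTCA in 5.71% against 1.55%. The SP1 motif GGGCGG, in 34.3% against 32.7%, and the TATA motif TATAAA, in 11.4% against 12.4%, lay close to the share of all promoters. Shown are the promoters of some genes described below: Ndufa11 (chr17:56717512-56717761, plus strand), Cycs (chr6:50566570-50566819, minus strand) and Atp5g2 (chr15:102671048-102671297, minus strand), which hold the NRF1 motif, and Ndufa1 (chrX:37191239-37191488, minus strand), which of the motifs searched holds SP1 alone. Ndufa11 and Cycs hold the cyclic AMP element as well. Promoters of Sdhb, Cox8a and Uqcr11, genes also described below, were searched and are not shown. Those of Sdhb and Cox8a hold no NRF1, ETS or YY1 match, and that of Uqcr11 holds the ETS motif alone. Capitals mark the NRF1 matches only, and each sequence runs 5′ to 3′, ending at the base before the start.
Ndufa11: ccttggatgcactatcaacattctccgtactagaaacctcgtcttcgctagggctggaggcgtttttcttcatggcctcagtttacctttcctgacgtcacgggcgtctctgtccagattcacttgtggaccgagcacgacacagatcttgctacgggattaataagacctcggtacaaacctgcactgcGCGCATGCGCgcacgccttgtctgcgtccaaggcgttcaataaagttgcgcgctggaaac
Cycs: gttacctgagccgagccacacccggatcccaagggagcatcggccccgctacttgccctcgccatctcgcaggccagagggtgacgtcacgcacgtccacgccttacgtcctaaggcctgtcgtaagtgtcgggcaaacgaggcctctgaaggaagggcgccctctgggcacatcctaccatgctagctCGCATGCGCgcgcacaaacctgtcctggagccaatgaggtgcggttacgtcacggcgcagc
Atp5g2: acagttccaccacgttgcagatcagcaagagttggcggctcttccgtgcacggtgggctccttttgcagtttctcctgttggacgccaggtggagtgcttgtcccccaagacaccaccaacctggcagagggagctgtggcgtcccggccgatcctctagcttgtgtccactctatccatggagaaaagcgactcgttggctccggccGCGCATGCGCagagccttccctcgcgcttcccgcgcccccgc
Ndufa1: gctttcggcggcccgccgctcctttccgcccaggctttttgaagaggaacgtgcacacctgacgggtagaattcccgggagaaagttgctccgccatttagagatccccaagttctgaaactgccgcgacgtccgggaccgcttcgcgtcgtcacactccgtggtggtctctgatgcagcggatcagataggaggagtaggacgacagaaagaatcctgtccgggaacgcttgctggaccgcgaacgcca
The match in Ndufa11 begins 60 bases before the start, that in Cycs 61 and that in Atp5g2 42. In Ndufa11 and Atp5g2 the stretch reads the same on both strands and was matched at overlapping positions, 1 base apart. A match describes the letters and shows no binding in these cells.

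No subunit gene passed the threshold between the groups. Of the 78 genes tested, 53 (67.9%) had a lower and 25 a higher mean on the KO-labelled arrays, where 53.2% of all genes tested had a lower mean. Their median difference was -0.06 on the log2 scale, against -0.01 over all genes, and the single differences ran from -0.59 to 0.15, ratios of 0.666 to 1.11. This balance rested on single arrays. Leaving out KO-labelled array 5 left 36 genes lower and 42 higher, with a median of 0.01, and leaving out control array 1 left 38 lower and 40 higher, also with a median of 0.01. Leaving out KO-labelled array 2, KO-labelled array 1, control array 3 or control array 5 left 65, 62, 61 or 59 lower. Leaving out control array 2, KO-labelled array 3, control array 4 or KO-labelled array 4 left 53, 51, 47 or 46 lower. Without both control arrays 2 and 3, the arrays with Xist signal, 62 genes were lower and 16 higher, with a median of -0.12. Over all genes, the share lower ran from 50.5% to 54.3% when 1 array was left out, and was 50.3% without control arrays 2 and 3. The medians of complexes I, II and III given below were 0.04, 0.13 and 0.08 without KO-labelled array 5 and 0.01, 0.08 and 0.05 without control array 1, and that of complex V was 0.00 and 0.01. Complex IV and Cycs kept a median below 0 without either array, at -0.07 and -0.18 without KO-labelled array 5 and at -0.08 and -0.18 without control array 1. Called at an adjusted p under 0.05 were 0 of the 78, as was 0% of all genes (limma, Benjamini-Hochberg over 17712 genes), and the adjusted p of the members ran from 0.654 to 0.994. At an unadjusted p under 0.05, 2 members were lower, Ndufa1 and Ndufa11, which is 2.56% beside 3.53% of all genes, and 0 were higher, beside 4.0% of all genes. Groups that did not overlap were found in 0 members and in 0.965% of all genes. For each of the 78 genes the difference was smaller than the range within the controls and within the KO-labelled arrays. That holds for Ndufa1 and Ndufa11 too, and the share over all genes was not counted, so it does not set the members apart. The 95% interval of the difference held 0 for 76 of the 78 genes. Since the arrays hold bulk RNA, fewer cells of a type and less RNA per cell cannot be told apart.

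**Figure D1:**
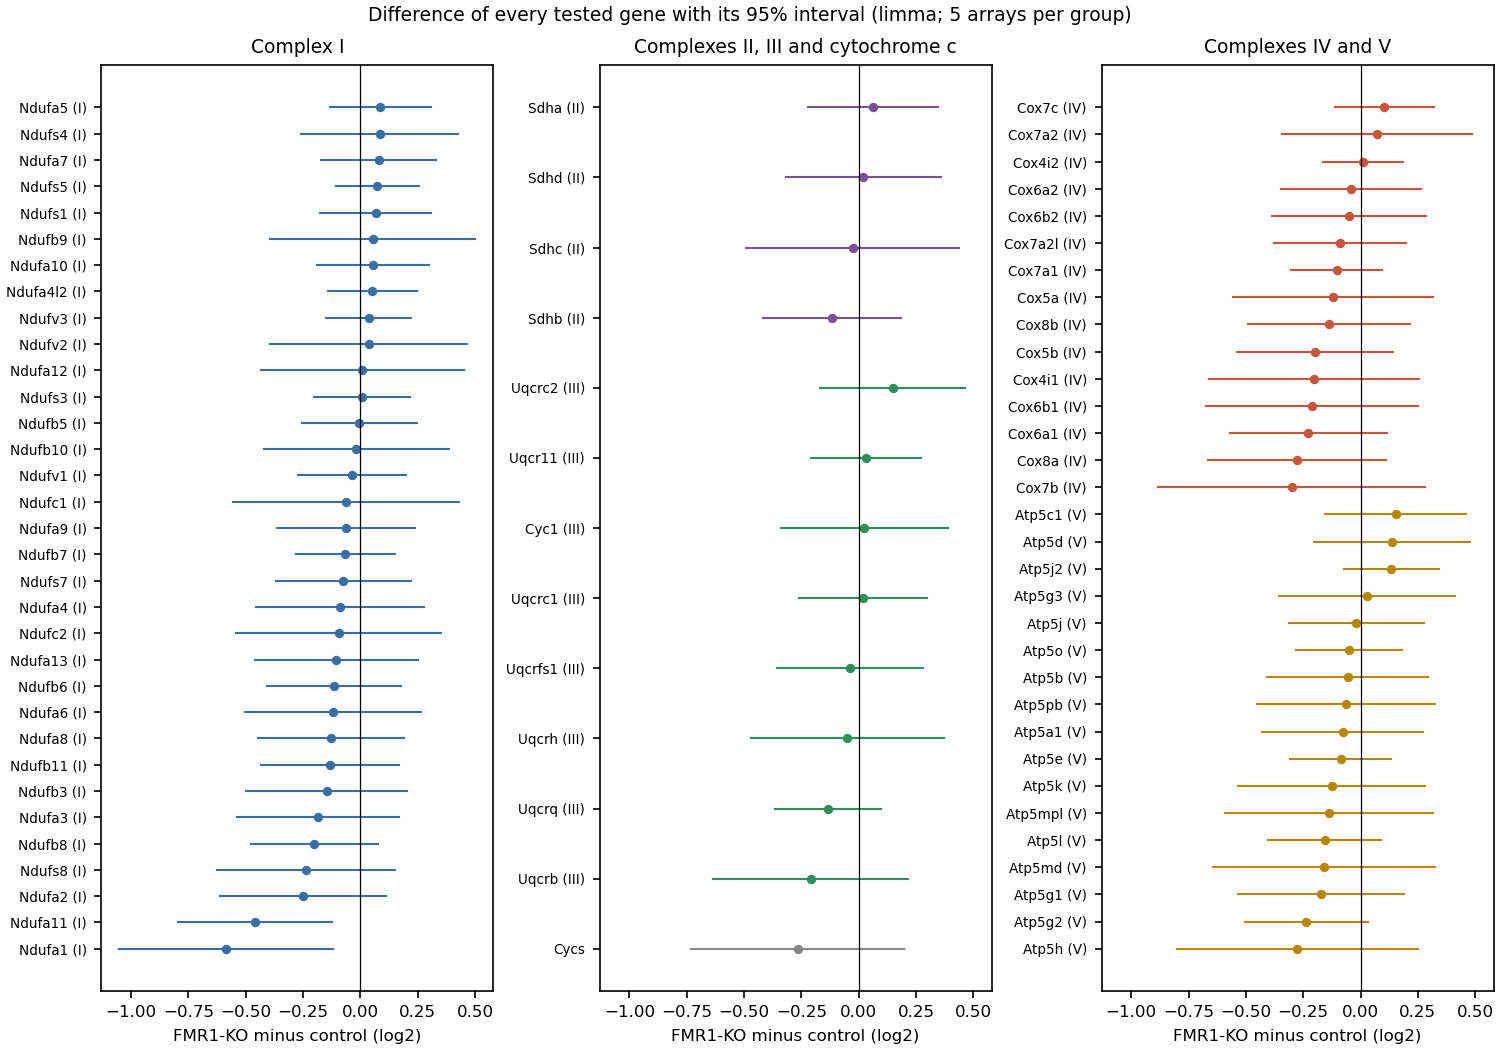
Difference of each of the 78 tested subunit genes between KO-labelled and control arrays (log2, 5 arrays a group) with its 95% interval from limma, by complex. The intervals of Ndufa1 and Ndufa11 lie below 0 and those of the other 76 genes hold 0.

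The subunit genes moved together from array to array within each group. Their mean level was 8.03, 7.80, 7.63, 7.91 and 7.59 on control arrays 1 to 5, and 7.88, 7.98, 7.68, 7.62 and 7.41 on KO-labelled arrays 1 to 5. That is 7.79 ± 0.19 (SD, n = 5) in controls and 7.72 ± 0.22 (SD, n = 5) in KO-labelled arrays, with groups that overlap over most of their range. Control array 1 was the highest control for 46 of the 78 genes (59.0%, against 22.1% of all genes), and control arrays 5 and 3 were the lowest for 36 and 26. Among the KO-labelled arrays, array 2 was the highest for 51 genes (65.4%, against 28.5% of all genes) and array 5 the lowest for 62 (79.5%, against 34.1%). The arrays on which the subunit genes read high, control 1 and KO-labelled 1 and 2, are those with the lowest microglia and the highest astrocyte marker means. Control array 4 read high as well, with a microglia mean of 10.90, and KO-labelled array 5 read lowest with one of 10.41. The median standard error of the members was 0.16, against 0.11 over all genes.

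**Figure D2:**
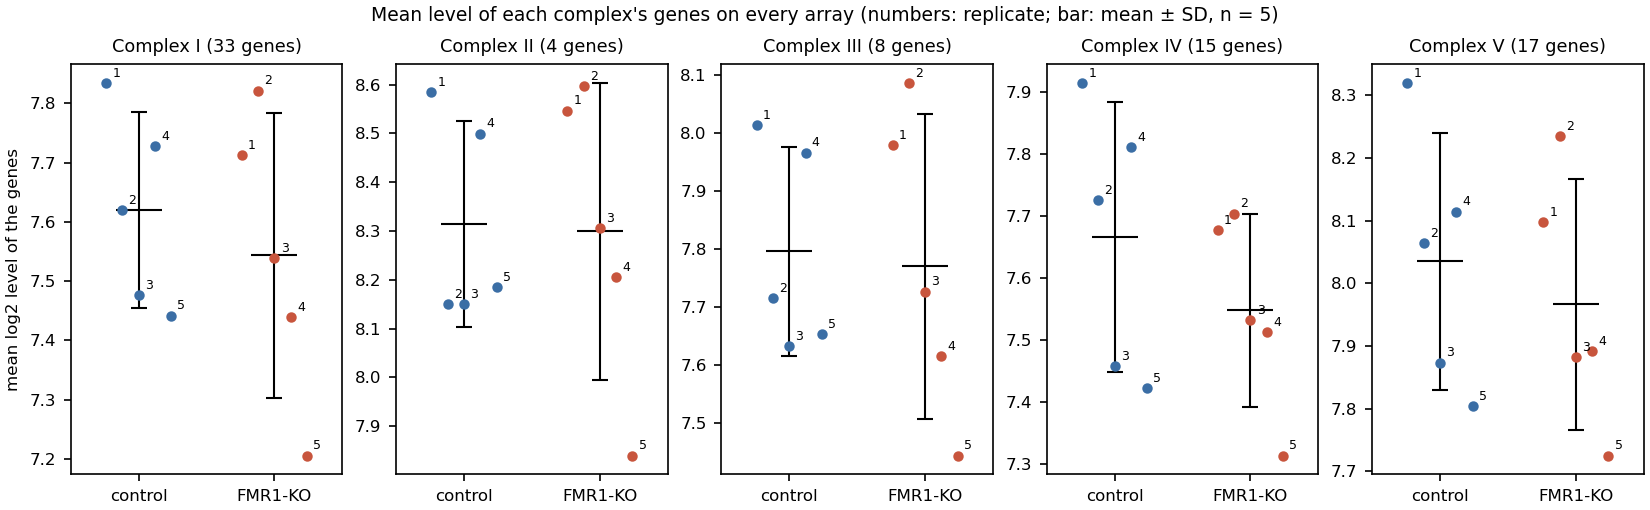
Mean log2 level of the tested genes of each complex on every array, numbered by replicate, with the mean and SD of each group (n = 5). In all 5 complexes KO-labelled array 5 is the lowest array and the groups overlap.

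Complex I, the NADH dehydrogenase, had 21 of 33 genes with a lower and 12 with a higher mean on the KO-labelled arrays, and a median difference of -0.06. The mean over its genes was 7.62 ± 0.17 (SD, n = 5) in controls and 7.54 ± 0.24 (SD, n = 5) in KO-labelled arrays. Its 2 genes at an unadjusted p under 0.05 encode accessory subunits of the membrane arm. Ndufa11, which sits in that arm at the contact with complex III in supercomplexes, read 8.40, 8.28, 7.89, 8.29 and 7.70 on control arrays 1 to 5 and 7.78, 8.01, 7.53, 7.52 and 7.41 on KO-labelled arrays 1 to 5. All 5 KO-labelled arrays lay below the control mean, and the groups overlapped through control arrays 3 and 5 and KO-labelled arrays 1 and 2. The difference was -0.46 ± 0.15 (SE; 95% interval -0.80 to -0.12), a ratio of 0.727, with a limma adjusted p of 0.654 (unadjusted 0.0113). A second, dimmer probe set of Ndufa11 differed by -0.07 ± 0.14, and the mean of both by -0.27.

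Ndufa1, an accessory subunit encoded on the X chromosome and needed for assembly of the complex, read 8.20, 7.17, 6.94, 7.58 and 7.30 on control arrays 1 to 5. On KO-labelled arrays 1 to 5 it read 7.02, 6.77, 7.11, 6.94 and 6.41. Control array 1 stood highest, all 5 KO-labelled arrays lay below the control mean, and control array 3 read as low as the middle of the KO-labelled group. The difference was -0.59 ± 0.21 (SE; 95% interval -1.05 to -0.12), a ratio of 0.666, with a limma adjusted p of 0.654 (unadjusted 0.0177). Leaving out control array 1 gave -0.40, and leaving out control arrays 2 and 3, which have Xist signal, gave -0.84.

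Other genes grouped with complex I by their symbols gave smaller differences. Ndufs1, the largest subunit and a carrier of iron-sulfur clusters, read 7.87 ± 0.21 (SD, n = 5) in controls and 7.94 ± 0.14 in KO-labelled arrays, a difference of 0.07 ± 0.11 (SE). Ndufv1, which binds NADH and takes its electrons, differed by -0.04 ± 0.11 (SE; 95% interval -0.27 to 0.20). Ndufs8, a core subunit with iron-sulfur clusters that was picked out after its values were seen, differed by -0.24 ± 0.18. Of the accessory subunits, Ndufb8 differed by -0.20 ± 0.13 and was below the control mean on 4 of 5 KO-labelled arrays, while Ndufb9 differed by 0.05 ± 0.21 and ran from 8.73 to 10.06 within the KO-labelled group alone. Ndufa4l2, a relative of Ndufa4 that hypoxia induces, differed by 0.05 ± 0.09.

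Complex II, succinate dehydrogenase, which is also an enzyme of the citric acid cycle, had 2 of 4 genes lower and 2 higher, with a median difference of -0.00. Its catalytic subunit Sdha, which holds the flavin, read 9.66 ± 0.22 (SD, n = 5) in controls and 9.72 ± 0.22 in KO-labelled arrays, a difference of 0.06 ± 0.13 (SE). The iron-sulfur subunit Sdhb read 7.96, 7.88, 7.75, 8.05 and 7.68 on control arrays 1 to 5 and 7.94, 8.09, 7.74, 7.67 and 7.30 on KO-labelled arrays 1 to 5. KO-labelled array 5 read clearly below the lowest control, array 4 read level with it, and array 2 read above the highest one. Sdhb differed by -0.12 ± 0.14, and Sdhd, a membrane anchor, by 0.02 ± 0.16. The adjusted p of the complex II genes ran from 0.840 to 0.983 (limma).

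Complex III, the cytochrome bc1 complex, had 4 of 8 genes lower and 4 higher, with a median difference of -0.01 and adjusted p from 0.743 to 0.980 (limma). Its redox subunits lay close to 0: Cyc1, cytochrome c1, differed by 0.03 ± 0.17 (SE) and Uqcrfs1, the Rieske iron-sulfur protein, by -0.04 ± 0.15. The core proteins Uqcrc1 and Uqcrc2 differed by 0.02 ± 0.13 and 0.15 ± 0.15, Uqcrc2 being above the control mean on 4 of 5 KO-labelled arrays. Of the small subunits, Uqcrb read 10.25, 9.31, 9.70, 10.22 and 9.49 on control arrays 1 to 5 and 9.97, 9.72, 9.54, 9.45 and 9.25 on KO-labelled arrays 1 to 5, a difference of -0.21 ± 0.20. The spread among the controls, high on arrays 1 and 4, was wider than that difference. Uqcrq differed by -0.13 ± 0.11, and Uqcr11, picked out after its values were seen, by 0.03.

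Cytochrome c itself, Cycs, which carries electrons from complex III to complex IV and triggers caspases when released, was split within both groups. It read 9.49, 9.25, 8.91, 9.40 and 8.73 on control arrays 1 to 5 and 9.34, 9.43, 8.56, 8.59 and 8.53 on KO-labelled arrays 1 to 5. KO-labelled arrays 1 and 2 read like the higher controls and arrays 3 to 5 read below every control. The difference was -0.27 ± 0.21 (SE; 95% interval -0.73 to 0.20; limma adjusted p = 0.749), and 3 of 5 KO-labelled arrays were below the control mean. Cycs has 5 probe sets, 2 of them with identical values, and all 5 had a lower mean on the KO-labelled arrays, by -0.27 to -0.07.

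**Figure D3:**
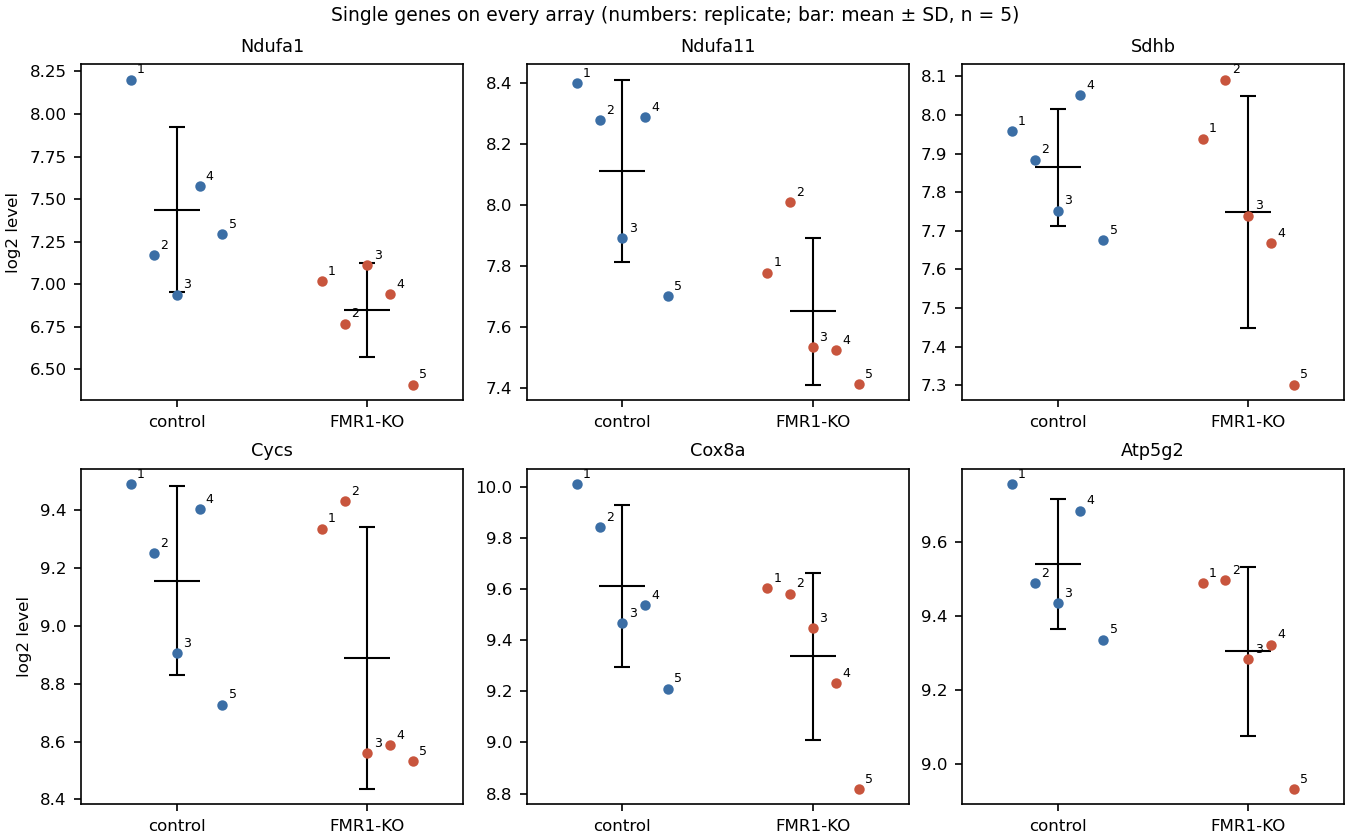
Log2 level of Ndufa1, Ndufa11, Sdhb, Cycs, Cox8a and Atp5g2 on every array, numbered by replicate, with the mean and SD of each group (n = 5). In all 6 panels the groups overlap and KO-labelled array 5 is the lowest array.

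Complex IV, cytochrome c oxidase, had 12 of 15 genes lower and 3 higher, with a median difference of -0.12, and adjusted p from 0.699 to 0.979 (limma). In a fit with array weights 9 of the 15 were lower and 6 higher, with a median of -0.14. The mean over its genes was 7.91, 7.73, 7.46, 7.81 and 7.42 on control arrays 1 to 5 and 7.68, 7.70, 7.53, 7.51 and 7.31 on KO-labelled arrays 1 to 5, so only KO-labelled array 5 lay below all controls. Of the broadly expressed isoforms, Cox8a, the smallest subunit, read 10.01, 9.84, 9.47, 9.54 and 9.21 on control arrays 1 to 5 and 9.61, 9.58, 9.45, 9.23 and 8.82 on KO-labelled arrays 1 to 5. All 5 KO-labelled arrays lay below the control mean, although only array 5 lay below the lowest control. Its difference was -0.28 ± 0.18 (SE), that of Cox6a1 -0.23 ± 0.16 and that of Cox6b1 -0.21 ± 0.21. Cox4i1, the regulatory subunit to which ATP binds, differed by -0.20 ± 0.21, and Cox5a, which binds next to it, by -0.12 ± 0.20. Cox5b differed by -0.20 ± 0.16. Cox7a2 differed by 0.07 ± 0.19.

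Isoforms of complex IV known from particular tissues were measured too. Cox4i2, the lung and hypoxia form of Cox4, read 6.06 to 6.42 in controls and 6.26 to 6.30 in KO-labelled arrays, a difference of 0.01 ± 0.08 (SE). The heart and muscle forms Cox6a2, Cox7a1 and Cox8b differed by -0.04 ± 0.14, -0.10 ± 0.09 and -0.14 ± 0.16, and the testis form Cox6b2 by -0.05 ± 0.16. The other testis form Cox8c, below the filter, read 5.21 to 5.43 in controls and 5.14 to 5.27 in KO-labelled arrays and was not tested.

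Complex V, the ATP synthase, had 13 of 17 genes lower and 4 higher, with a median difference of -0.08 and adjusted p from 0.667 to 0.981 (limma). In the catalytic head, Atp5a1, the alpha subunit, differed by -0.08 ± 0.16 (SE) and Atp5b, the beta subunit where ATP is made, by -0.06 ± 0.16. Atp5g2, 1 of the genes for the c subunit that forms the rotor ring, read 9.76, 9.49, 9.44, 9.68 and 9.34 on control arrays 1 to 5 and 9.49, 9.50, 9.28, 9.32 and 8.93 on KO-labelled arrays 1 to 5. All 5 KO-labelled arrays were below the control mean, with arrays 1 and 2 at the level of control array 2. The difference was -0.24 ± 0.12 (95% interval -0.50 to 0.03; adjusted p = 0.667, limma). Its second probe set differed by -0.14. The small membrane subunits Atp5l and Atp5j2 differed by -0.16 ± 0.11 and 0.13 ± 0.10.

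Probe sets of one gene did not always give the same direction. Of the 10 genes with several probe sets, Cox7b, Atp5h and Cox5b, singled out after their values were seen, had a lower mean in the probe set used (-0.30, -0.28 and -0.20) and a higher one in the dimmer probe set (0.29, 0.27 and 0.10). The dimmer Cox7b probe set had an unadjusted p of 0.0191 in limma, and an adjusted p of 0.751 over all probe sets. Many subunit genes have processed copies elsewhere in the genome that probes can read too, so a single gene's value is uncertain. Another 10 probe sets that match the symbols but list several were not assigned to a gene. Their means were higher in 5 and lower in 5, and the differences ran from -0.19 to 0.21 (median 0.01).

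More of the subunit genes had a group difference below 0 in fits that held a cell-type marker mean as a covariate. The difference in such a fit is the group term beside the covariate, while the group means stay the same. With the mean of the microglia markers as covariate, 72 of the 78 genes were lower in this sense, where 51.7% of all genes were. Their median was -0.25. At an unadjusted p under 0.05 in limma, 25 of the 78 (32.1%) were lower, where 2.64% of all genes were. At that p, 0 members and 1.76% of all genes were higher. The 25 were 12 of 33 genes of complex I, 0 of 4 of complex II, 2 of 8 of complex III, Cycs, 6 of 15 of complex IV and 4 of 17 of complex V. Cycs differed by -0.62 ± 0.14 (SE) in that fit and Ndufa11 by -0.68 ± 0.13. No member passed on adjusted p, whose smallest value was 0.813 (limma). The subunit genes share the arrays and move together on them, so the 25 are not independent of each other.

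The size of that count rested in part on single arrays and on the marker list. With the same covariate, it was 12 (15.4%, against 1.55% of all genes) without KO-labelled array 5, 17 (21.8%, against 4.43%) without control array 1, and 24 (30.8%, against 2.92%) without control arrays 2 and 3. With the astrocyte marker mean as the covariate it was 38 (48.7%, against 4.12%), and the smallest adjusted p was 0.226 (limma). Without a covariate, but leaving out the 3 arrays of lowest microglia signal (control 1 and KO-labelled 1 and 2), it was 10 (12.8%, against 5.57%). There, 67 of the 78 genes were lower, where 56% of all genes were, with a median of -0.12. Ndufa1 was not among the 17, with a difference of -0.36. In each of these fits 0 members were higher at an unadjusted p under 0.05 and 0 passed on adjusted p. Holding a marker mean as a covariate widened the members' median difference, from -0.06 to -0.25 (microglia) and -0.26 (astrocyte). Both marker means differed between the groups, so genotype and cell makeup cannot be told apart here.

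**Figure D4:**
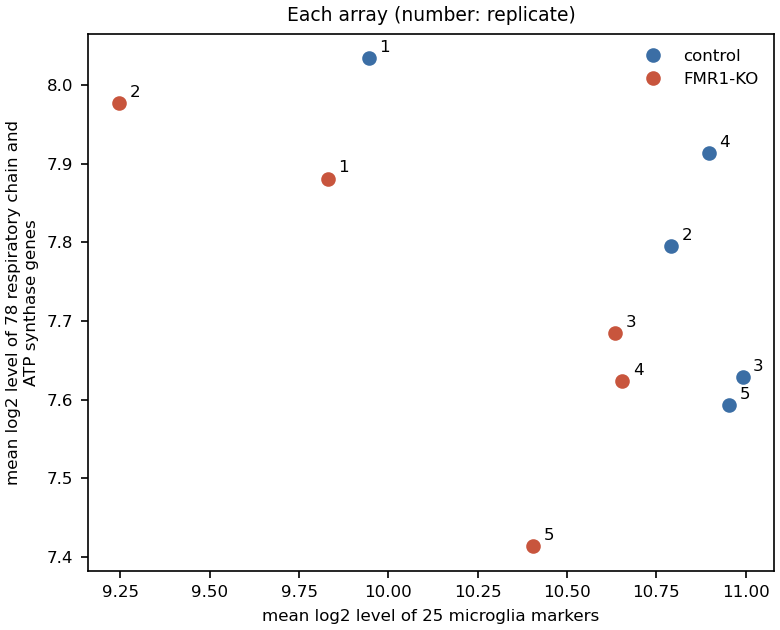
Mean log2 level of the 78 tested subunit genes against the mean log2 level of 25 microglia markers on each array, numbered by replicate and coloured by group. Control array 1 and KO-labelled arrays 1 and 2 have microglia means from 9.25 to 9.95 and subunit means from 7.88 to 8.03, and the other arrays lie further right between 7.41 and 7.91.

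**Figure D5:**
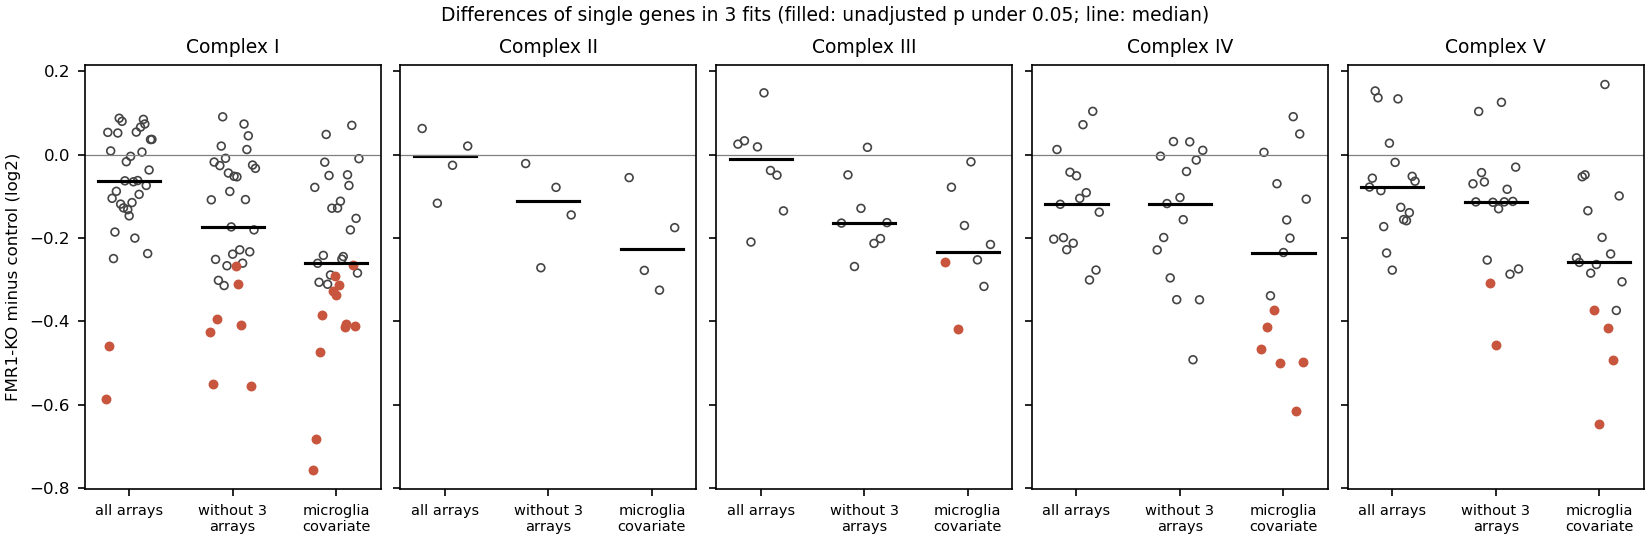
Log2 differences of single subunit genes, by complex, in 3 fits: all arrays, without the 3 arrays of lowest microglia signal, and with the microglia covariate. Filled points have an unadjusted p under 0.05 (2, 10 and 25 of the 78 genes, Cycs included, which is not drawn) and lines are medians.

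Subunits outside these symbols and the machinery around the chain were read from further lists, chosen like the members with earlier results of these data known. Of the 13 subunits encoded in the mitochondrial genome, 10 were measured, 7 higher and 3 lower, with a median of 0.02 and 0 at an unadjusted p under 0.05. Most lay close to the top of the arrays' range: ND4, for example, chosen after its values were seen, read 13.70 ± 0.01 (SD, n = 5) in controls, where the arrays' highest values lie between 13.7 and 13.9. ND3 and ND6, membrane subunits of complex I, differed by -0.16 ± 0.14 (SE) and -0.40 ± 0.41. Among 4 measured subunits and partners of other names, Atpif1, the inhibitor that keeps ATP synthase from running backwards, read 9.01, 8.78, 8.89, 8.94 and 8.65 on control arrays 1 to 5 and 8.56, 8.36, 8.75, 8.61 and 8.48 on KO-labelled arrays 1 to 5. All KO-labelled arrays lay below the control mean, and the groups overlapped through KO-labelled array 3 and control array 5. The difference was -0.30 ± 0.10 (limma adjusted p = 0.654). Higd2a, which helps assemble complex IV, differed by -0.09 ± 0.11.

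The assembly factors, which build the complexes without staying in them, had 23 of 51 genes higher and 28 lower, with a median of -0.01. At an unadjusted p under 0.05, where 4.0% of all genes were higher, 2 of the 51 were: Lyrm7, a chaperone of the Rieske protein (0.28 ± 0.10 SE), and Nubpl, which delivers iron-sulfur clusters to complex I (0.17 ± 0.07). Citric acid cycle genes, with 12 of 19 higher and a median of 0.04, had 0 at that p. Citrate synthase, Cs, which starts the cycle, differed by 0.36 ± 0.19, with KO-labelled arrays 1 and 2 at 9.91 and 10.26 and the other 3 between 9.29 and 9.42, inside the control range of 9.02 to 9.52. Dlat, a subunit of pyruvate dehydrogenase, differed by 0.22 ± 0.13.

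The import machinery, through which every nuclear subunit enters the mitochondrion, had 20 of 29 genes lower, where 53.2% of all genes were, and a median of -0.07. Its 3 genes at an unadjusted p under 0.05, all lower (3.53% of all genes), were also its 3 genes whose groups did not overlap (0.965% of all genes). Gfer, the sulfhydryl oxidase of the intermembrane space, read 6.59, 7.09, 6.90, 6.73 and 6.56 on control arrays 1 to 5 and 6.48, 6.37, 6.30, 6.49 and 6.34 on KO-labelled arrays 1 to 5, a difference of -0.38 ± 0.11 (SE). Tomm70a, an import receptor of the outer membrane, differed by -0.30 ± 0.10. The third, Timm13, a chaperone of the intermembrane space named after its values were seen, differed by -0.24 ± 0.09. Each had an adjusted p of 0.654 (limma). Regulators of mitochondrial biogenesis and genome upkeep had 12 of 21 genes higher and a median of 0.03. Of these, Yy1, a zinc finger factor, differed by -0.31 ± 0.11, the list's only gene at an unadjusted p under 0.05, and Esrra, a nuclear receptor that drives subunit genes, by -0.18 ± 0.10. By promoter motif, the 13 tested subunit genes with the NRF1 motif had a median difference of -0.13 with 8 lower, and the 51 without it a median of -0.06 with 37 lower. For the ETS motif, the 12 with it had a median of -0.08 with 9 lower, and the 52 without it -0.07 with 36 lower. The 6 with the YY1 motif had a median of -0.02 with 5 lower, and the 58 without it -0.08 with 40 lower. These splits were not tested.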

How the data were processed

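RNA was measured on 10 Affymetrix arrays. The authors deposited log2 signal levels per probe set. The scale was read from the values, which run from 4.31 to 13.9. Per the series' design text, control and FMR1 KO were compared in GeneSpring 13.1.1. How probes were background-corrected, normalized and summarised is not given in the sources used here. Groups were taken from the labels. For each gene the brightest probe set with 1 symbol was kept, and those averaging under the 25th percentile of all probe sets (5.32) were dropped. Differences (KO-labelled minus control) were tested two-sided in limma 3.58.1 (lmFit and eBayes; R 4.3.3), with Benjamini-Hochberg adjustment over 17712 genes and a threshold of 0.05. The code was tested on simulated data. The genes named are Fmr1, in each complex the 3 with the smallest unadjusted p and the one with the highest mean, core subunits and tissue isoforms chosen whatever their values, and the first 2 by p of each further mitochondrial list. Complexes were assigned by symbol. The members and all lists were chosen with earlier results of these data known. Alternatives were another normalization, another dimness filter, averaged probe sets, other eBayes settings, a replicate block, array weights, marker covariates and arrays left out. Some covariate fits were added after the data were seen.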

Additional observations from a re-analysis of the deposited data

Results flagged for a closer look

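Of 108 groups of 5 arrays checked for a single array far from the rest, over the named genes and the complex means, 3 had one, and chance gives about 1 in 20 groups. Cox4i2 read 6.30 on KO-labelled array 1 and 6.26 to 6.27 on the other 4, a gap far smaller than the spread among the controls. Cox8c, a dim probe set below the filter, read 5.43 on control array 2, where the remaining controls read 5.21 to 5.26. Nubpl read 6.17 on KO-labelled array 5 and 6.34 to 6.40 on the other 4.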

How the results depend on the processing

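No member passed the threshold on adjusted p in any fit run. Over all genes, 1 gene passed without the 3 arrays of lowest microglia signal, 1 with the microglia covariate and without control array 1, and 0 or 1 when each array was left out in turn (1 without control array 5). Members with a difference above 0, 25 with all arrays, numbered 16 without control arrays 2 and 3, 11 without the 3 arrays of lowest microglia signal, 6 with the microglia covariate, and with that covariate 9 without control arrays 2 and 3, 8 when control array 1 and 14 when KO-labelled array 5 was left out. They numbered 7 with the astrocyte covariate and 13 to 42 when each array was left out, the lowest without KO-labelled array 2 and the highest without KO-labelled array 5, where the members' median was 0.01. Leaving out 1 array moved that median between -0.12 and 0.01. Over all genes, the share with a difference below 0 ran from 45.8% to 56% over the fits. Lower members at an unadjusted p under 0.05, 2 with all arrays, numbered 6 with the replicate block (7.69%, where 6.06% of all genes were lower at that p), 10, 25, 24, 12, 17 and 38 in the marker fits of the report, and 2 to 5 when each array was left out. The labels do not say whether the replicate numbers pair the samples. The correlation of same-numbered arrays ran from -0.015 to 0.525, which cannot settle it with so few arrays. Medians that moved by more than the spread between arrays were, with the microglia covariate, -0.28 for complex I, -0.26 for complex III and -0.73 for Cycs without control array 1 and -0.31 for complex V without control arrays 2 and 3, and -0.27 for complex I with the astrocyte covariate. The causes were not tested. Of 47 named genes tested, none passed under any alternative (lowest adjusted p 0.206 by limma), and 106 of 1171 values had the other sign. The 3 added fits were the astrocyte covariate and the microglia covariate without KO-labelled array 5 or control array 1.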
